A study of Mus musculus with 8 samples.

Results

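The genes of the unfolded protein response and of the ATF4 stress response were compared between tumors formed by disseminated tumor cells (DTC tumors) and mammary tumors of the BALB-neuT model. The set held 44 genes, listed by name for their known roles: 15 chaperones and degradation factors of the endoplasmic reticulum (ER), 10 stress sensors and transcription factors, 12 ATF4 targets of amino acid supply and 7 stress effectors and secreted factors. Each gene was read from the probe set annotated with its symbol alone and, where there were several, from the probe set that averaged highest across the 8 arrays. This gave 42 of the 44 genes, out of 22180 genes named on the array in the same way. Pdia4, an ER disulfide isomerase, shares its probe set with a microRNA and Gdf15, a secreted stress factor, was not matched to a probe set, so neither is analysed here.

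Each tumor was hybridized to 1 MoGene 2.0 ST array, which reads messenger RNA along whole transcripts. All tumors carried the activated rat Her2/neu transgene under the hormone-responsive MMTV promoter on the BALB-neuT background and grew under the skin of immunodeficient NSG mice after injection in Matrigel with 1 µg of bFGF. The 4 DTC tumors arose from pooled whole bone marrow cells of BALB-neuT mice. The 4 mammary tumors arose from injected mammary tumor cells according to the text of the study, whose array methods call them primary, and from TUBO cells, a line established from a BALB-neuT carcinoma, according to the sample labels. If the labels hold, all 4 come from a single cell line. The labels call the DTC early while the text of the study describes tumors from late donors, so the donors' age is not settled, and neither source says that each array is from a different mouse. The p-values below therefore measure the spread between these 8 tumors. NSG hosts lack T, B and NK cells but keep myeloid cells, fibroblasts and vessels, and the RNA came from shavings of the tumor mass. A lower value can thus mean fewer cells of a type or less RNA per cell, which cannot be told apart.

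Proteins that fail to fold in the ER draw the chaperone BiP away from 3 sensors of the ER membrane: IRE1, which splices the mRNA of the transcription factor XBP1, ATF6, which is cut to release a transcription factor, and PERK, a kinase that phosphorylates the initiation factor eIF2. XBP1 and ATF6 raise ER chaperones and the machinery that degrades misfolded proteins. Phosphorylated eIF2 slows translation but favors that of ATF4, which raises amino acid synthesis and uptake genes and, through CHOP, genes of cell death and feedback; since amino acid shortage, heme shortage and viral RNA also lead to eIF2 phosphorylation, the ATF4 arm can run without ER stress.

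None of the 42 genes differed between the groups past the study's thresholds, an adjusted p of at most 0.05 with a log2 fold change of at least 1 in size, in limma after a filter that kept probe sets with an interquartile range above 0.25. Over the array 25 of 18877 probe sets did, which is 0.132%, and 20 of the 42 genes had a probe set that passed this filter. With the adjusted p alone 27 probe sets (0.143%) and no member passed, the smallest adjusted p among the members being 0.102. At an unadjusted limma p of at most 0.05, 2 of these 20 genes were higher in DTC tumors and 4 lower, against 6.47% and 8.28% of all probe sets tested, unnamed and dim ones included. Of the 8282 genes with 1 probe set each that passed the filter, 636 were higher and 1002 lower at that p. For the 5501 of them with a mean log2 level of at least 5 the counts were 536 and 943. Without the filter the same count was 3 higher and 5 lower of 42, against 5.62% and 7.76% of all genes, or 7.04% and 11.4% of the 13862 genes with a mean log2 level of at least 5. No member passed an adjusted p of 0.05 in that fit, where 0.0677% of all probe sets did. The 2 groups of 4 tumors did not overlap for 5 genes, 1 higher (Slc7a5) and 4 lower (Dnajc3, Herpud1, Dnajb9 and Eif2ak3), beside 3.89% and 5.76% of all genes and 4.89% and 8.49% of those 13862 genes. As shares of 42 genes, the counts without the filter and of groups that did not overlap were close to those of the brighter genes. The counts rested on few tumors: leaving out 1 tumor at a time gave 0 (without mammary tumor 1) to 4 (without mammary tumor 4) genes higher at the unadjusted p with the filter, and 2 (without DTC tumor 1, 2 or 4 or mammary tumor 1 or 2) to 6 (without DTC tumor 3) lower. What follows therefore describes single genes and their order, with all differences given as DTC minus mammary tumors on the log2 scale.

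**Figure D1:**
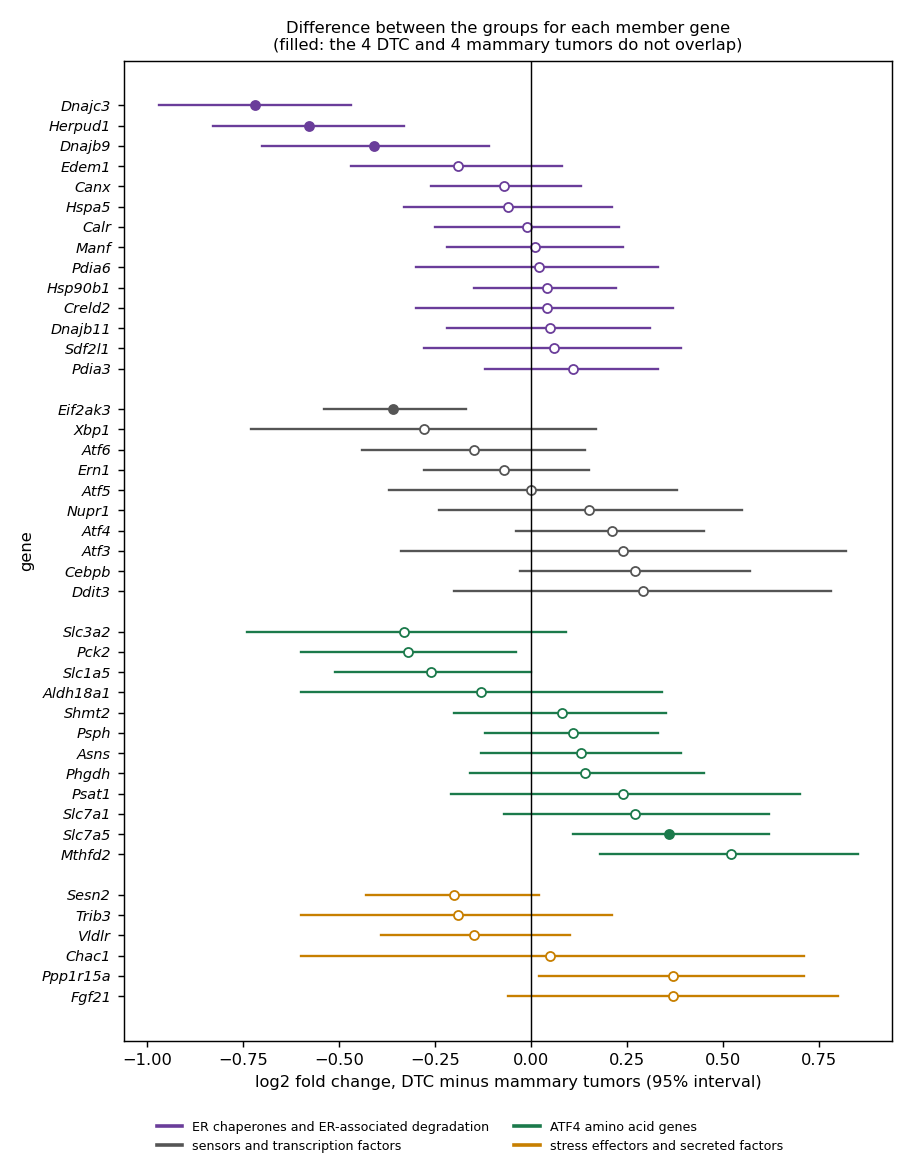
The horizontal axis is the log2 fold change of each of the 42 genes, DTC minus mammary tumors, with its 95% interval as a line, and the genes are grouped by role and ordered by value within a group. Filled points mark genes whose 4 DTC and 4 mammary tumors do not overlap: Dnajc3, Herpud1, Dnajb9 and Eif2ak3 on the lower side and Slc7a5 on the higher side, while 10 ER genes lie between -0.07 and 0.11.

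The chaperones that fold proteins in the ER lumen showed only small differences between DTC and mammary tumors. Hspa5 encodes BiP, the Hsp70 of the ER and the standard readout of the unfolded protein response. Its log2 level was 10.40, 10.38, 10.17 and 10.21 in DTC tumors 1 to 4 and 10.40, 10.13, 10.28 and 10.60 in mammary tumors 1 to 4. The groups overlapped fully, with both the highest and the lowest value among the mammary tumors. The difference was -0.06 with a 95% interval of -0.33 to 0.21. Hsp90b1, the ER member of the Hsp90 family, was the tightest gene of the set: all 8 tumors lay between 12.33 and 12.46, and the difference was 0.04 (interval -0.15 to 0.22). The lectin chaperones calreticulin and calnexin, which hold glycoproteins until they fold, differed by -0.01 (Calr) and -0.07 (Canx). Pdia3, the disulfide isomerase that works with these lectins, differed by 0.11, and Pdia6, another isomerase of the lumen, by 0.02. Of the smaller BiP partners, Dnajb11 differed by 0.05, Sdf2l1, which binds Dnajb11, by 0.06, and the secreted cofactor Manf by 0.01. Creld2, an ER protein induced with these chaperones, differed by 0.04. The 95% intervals of these 10 genes together ran from -0.33 to 0.39, so a difference of 1 log2 unit in any of them lay outside its interval.

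By contrast, 3 ER genes were lower in every DTC tumor than in any mammary tumor. Dnajc3 encodes p58IPK, a J-domain partner of BiP in the lumen that is also known to restrain PERK. It read 9.22, 9.39, 9.63 and 9.44 in the DTC tumors and 10.18, 10.21, 10.02 and 10.17 in the mammary tumors. The gap between the groups, from 9.63 to 10.02, was wider than the range of the mammary tumors. The mammary level was 1.65 times that of DTC tumors (log2 difference -0.72, SE 0.11, interval -0.97 to -0.47), with an adjusted p of 0.102 in limma. Herpud1 encodes a membrane scaffold of the HRD1 complex, which exports misfolded proteins for degradation. It read 9.11, 9.07, 9.14 and 9.39 in the DTC tumors and 9.80, 9.64, 9.67 and 9.91 in the mammary tumors. DTC tumor 4 was the DTC tumor closest to the mammary range. The difference was -0.58 (SE 0.11), or 1.49 times, with an adjusted limma p of 0.156. Dnajb9 encodes ERdj4, a J-domain protein that brings BiP to IRE1 and to misfolded clients. It read 9.28, 9.30, 9.34 and 9.19 in the DTC tumors and 9.95, 9.84, 9.45 and 9.50 in the mammary tumors. The DTC tumors were close together, whereas mammary tumors 1 and 2 stood well above 3 and 4. The difference was -0.41 (SE 0.13) with an adjusted limma p of 0.31. The remaining degradation gene, Edem1, which passes glycoproteins on to the degradation machinery, differed by -0.19 (interval -0.47 to 0.08) and overlapped.

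Dnajc3 and Herpud1 passed the adjusted p under another rule for probe sets. When each gene was represented by 1 probe set before the limma fit, the adjusted p was 0.0234 for Dnajc3 and 0.0495 for Herpud1, and with the mean of a gene's probe sets it was 0.0232 and 0.0496. Both differences stayed under 1 log2 unit. For the 5 genes whose groups did not overlap, an exact two-sided permutation test can only give 0.0286, the smallest p for 4 against 4 tumors. That value follows from how the 5 genes were picked and adds nothing to the separation.

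Chromosome position moved with some of these values. Dnajc3 lies on chromosome 14, where the median difference of 466 genes was -0.36 and 83.7% had a lower mean in DTC tumors. Relative to that median Dnajc3 differed by -0.36, and 10.5% of the genes on this chromosome had a difference as low or lower. Dnajb9 and Pdia6 lie on chromosome 12, whose median deviation split both groups, at 0.12, 0.11, -0.15 and -0.18 in the DTC tumors and 0.16, 0.18, -0.06 and -0.18 in the mammary tumors. Dnajb9 followed this split in the mammary tumors but not in the DTC tumors, and 7.01% of the 499 genes there had a difference as low. Pdia6 followed it in both groups, with 11.55, 11.61, 11.31 and 11.06 in DTC tumors and 11.55, 11.41, 11.26 and 11.24 in mammary tumors. The chromosomes of Herpud1 (chromosome 8) and Eif2ak3 (chromosome 6) had median differences of 0.00. The part of chromosome position in the result was not tested.

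**Figure D2:**
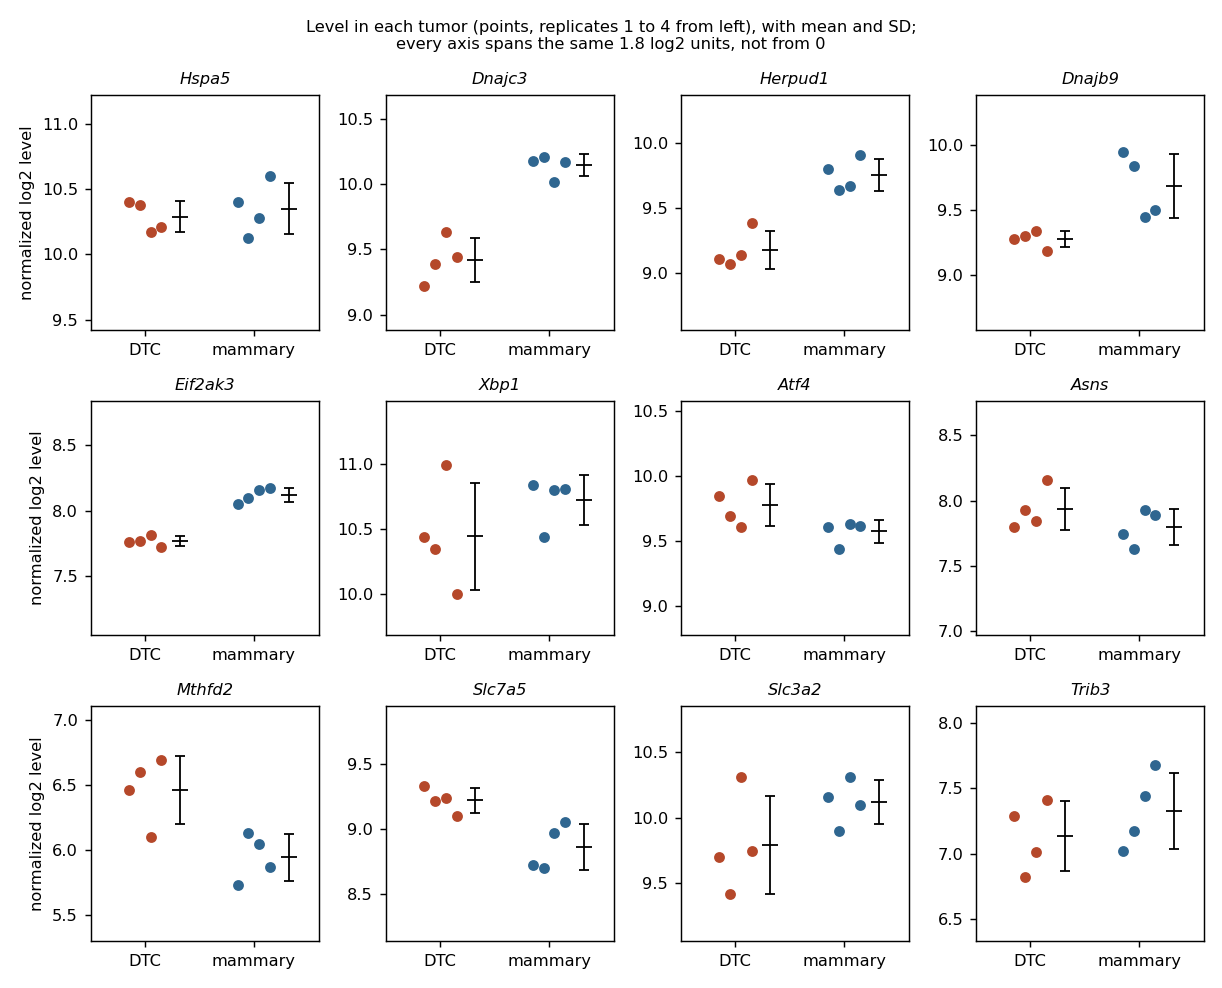
Each panel shows 1 gene, with the normalized log2 level of the 4 DTC and 4 mammary tumors as points in replicate order and the mean with its SD beside them; every vertical axis spans the same number of log2 units and does not start at 0. Dnajc3, Herpud1, Dnajb9 and Eif2ak3 separate with DTC tumors lower and Slc7a5 with DTC tumors higher, while Hspa5, Xbp1, Asns, Slc3a2 and Trib3 overlap.

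Promoter elements are shown because Dnajc3, a lower ER gene, held the same one as ER genes with small differences. The ER stress response element (ERSE), bound by ATF6 with the CCAAT factor NF-Y, was searched as CCAAT, any 9 bases and CCACG on both strands of the RefSeq promoter windows of GRCm38.p6, which run from 250 bases before to 50 bases after a gene's start. It occurred in 39 of 32851 windows (0.119%) and in 7 of the 38 measured members that had a window. The elements are given 5′ to 3′ in the direction of the motif, with its fixed letters in capitals.
Hspa5, chr2:34772025-34772043, plus strand: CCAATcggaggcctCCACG
Calr, chr8:84847075-84847093, plus strand: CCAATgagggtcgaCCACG
Hsp90b1, chr10:86705638-86705656, minus strand: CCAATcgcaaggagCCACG
Hsp90b1, chr10:86705533-86705551, plus strand: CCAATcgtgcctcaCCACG
Canx, chr11:50325800-50325818, minus strand: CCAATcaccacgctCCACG
Pdia6, chr12:17266491-17266509, plus strand: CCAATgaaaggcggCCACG
Creld2, chr15:88819520-88819538, minus strand: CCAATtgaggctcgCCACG
Dnajc3, chr14:118937827-118937845, plus strand: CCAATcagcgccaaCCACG
The 6 genes above Dnajc3 in this series differed by -0.07 to 0.04 between the groups, and Dnajc3, with the same fixed letters, by -0.72. A match is a description of letters and not a bound site.

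A shorter form, ERSE-II, searched as ATTGG, any 1 base and CCACG on both strands, occurred in 12 windows (0.0365%), of which 2 belonged to members: ATTGGgCCACG before Herpud1 (chr8:94386377-94386387), which was lower, and ATTGGcCCACG at the start of Dnajb11 (chr16:22857852-22857862), which differed by 0.05. The UPRE, a site of XBP1 and ATF6 searched as TGACGTGG, occurred in 222 windows (0.676%) and in none of the members' windows. Manf, Atf6, Slc7a5 and Slc1a5 had no entry. The whole windows of Hspa5 (chr2:34771840-34772139, plus strand), of the lower Dnajc3 (chr14:118937682-118937981, plus strand) and of the lower Herpud1 (chr8:94386179-94386478, plus strand) are given for comparison, with the fixed letters of every match in capitals.
Hspa5: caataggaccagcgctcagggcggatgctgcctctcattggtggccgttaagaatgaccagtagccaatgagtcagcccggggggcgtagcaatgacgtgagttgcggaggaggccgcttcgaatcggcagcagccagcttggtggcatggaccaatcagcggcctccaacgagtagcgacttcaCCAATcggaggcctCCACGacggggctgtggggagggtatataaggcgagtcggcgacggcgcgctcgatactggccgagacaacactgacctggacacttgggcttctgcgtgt
Dnajc3: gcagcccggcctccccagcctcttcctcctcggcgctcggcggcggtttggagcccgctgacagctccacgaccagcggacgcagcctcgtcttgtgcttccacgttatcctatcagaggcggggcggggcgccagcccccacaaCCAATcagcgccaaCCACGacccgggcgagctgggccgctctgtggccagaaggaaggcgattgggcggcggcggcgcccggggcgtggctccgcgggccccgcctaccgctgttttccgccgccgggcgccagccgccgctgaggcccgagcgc
Herpud1: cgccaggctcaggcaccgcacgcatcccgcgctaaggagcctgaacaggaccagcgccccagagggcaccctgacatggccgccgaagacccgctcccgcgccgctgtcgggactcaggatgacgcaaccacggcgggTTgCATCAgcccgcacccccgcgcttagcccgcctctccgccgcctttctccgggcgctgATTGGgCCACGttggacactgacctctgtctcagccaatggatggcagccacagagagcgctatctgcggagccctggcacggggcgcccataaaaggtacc
The Herpud1 window also held, on its other strand, the amino acid response element (CARE) to which ATF4 binds.

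The 3 ER sensors gave values of their own. Eif2ak3 encodes PERK, the sensor that leads to ATF4. It read 7.76, 7.77, 7.81 and 7.72 in DTC tumors and 8.05, 8.10, 8.16 and 8.17 in mammary tumors. The groups were far apart for their spread, whose pooled SD was 0.05 against a median of 0.17 over the 42 genes. The difference was -0.36 (SE 0.08, interval -0.54 to -0.17), the mammary level being 1.28 times the DTC level, with an adjusted limma p of 0.292. Ern1, which encodes IRE1, differed by -0.07 and Atf6 by -0.15, both with overlapping groups. Xbp1, the target of IRE1, read 10.44, 10.35, 10.99 and 10.00 in DTC tumors and 10.84, 10.44, 10.80 and 10.81 in mammary tumors. DTC tumors 3 and 4 held the highest and the lowest value of all 8, and the difference of -0.28 had an interval of -0.73 to 0.17. The single probe set does not separate spliced from unspliced Xbp1, so IRE1 activity was not measured.

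Atf4, the transcription factor downstream of PERK, read 9.85, 9.69, 9.61 and 9.97 in DTC tumors and 9.61, 9.44, 9.63 and 9.62 in mammary tumors. DTC tumors 1, 2 and 4 lay above all mammary tumors and DTC tumor 3 among them, for a difference of 0.21 (interval -0.04 to 0.45, unadjusted p 0.0884 in the limma fit without the filter). Since ATF4 protein is set mainly by translation, its mRNA is only part of its level. Ddit3, which encodes CHOP, read 6.64, 6.64, 7.02 and 7.27 in DTC tumors and 6.05, 6.92, 6.56 and 6.87 in mammary tumors. The groups overlapped, with a difference of 0.29 and an interval of -0.20 to 0.78. The other factors of the ATF4 network also overlapped: Atf3, a repressor and activator induced by many stresses, differed by 0.24, Cebpb, a dimer partner of ATF4, by 0.27, Nupr1, a small chromatin protein, by 0.15 and Atf5, itself under translational control like ATF4, by 0.00.

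The ATF4 targets of amino acid supply were mixed, with 8 of 12 genes at a higher mean in DTC tumors and 4 at a lower one. Mthfd2, a mitochondrial enzyme of folate metabolism, had the largest difference toward DTC tumors in the whole set. It read 6.46, 6.60, 6.10 and 6.69 in DTC tumors and 5.73, 6.13, 6.05 and 5.87 in mammary tumors. Only DTC tumor 3 fell within the mammary range, and the difference was 0.52 (SE 0.15, interval 0.18 to 0.85), or 1.43 times, with an adjusted limma p of 0.254. Slc7a5 encodes LAT1, the carrier of leucine and other large neutral amino acids. It read 9.33, 9.21, 9.24 and 9.10 in DTC tumors and 8.72, 8.70, 8.97 and 9.05 in mammary tumors. The groups did not overlap, although mammary tumor 4 came close to DTC tumor 4, and the difference was 0.36 (SE 0.11) with an adjusted limma p of 0.328. Slc3a2 encodes the heavy chain that LAT1 needs to reach the membrane, and its mean was lower in DTC tumors. It read 9.70, 9.41, 10.31 and 9.74 in DTC tumors and 10.16, 9.90, 10.31 and 10.10 in mammary tumors, and was picked for display after its values were seen. DTC tumor 3 matched the highest mammary tumor while the other 3 lay below all of them, and the difference of -0.33 had an interval of -0.74 to 0.09.

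Asns, asparagine synthetase, is a standard readout of ATF4. It read 7.80, 7.93, 7.84 and 8.16 in DTC tumors and 7.74, 7.63, 7.93 and 7.89 in mammary tumors. DTC tumor 4 was the highest and mammary tumor 2 the lowest, and the difference of 0.13 (interval -0.13 to 0.39) did not pass. The serine synthesis enzymes differed by 0.24 (Psat1), 0.14 (Phgdh) and 0.11 (Psph), and Shmt2, which passes serine carbon to mitochondrial folate, by 0.08. Slc7a1, the carrier of arginine and lysine, differed by 0.27. On the other side, Aldh18a1, which starts proline synthesis, differed by -0.13 and Slc1a5, the glutamine carrier ASCT2, by -0.26. A dimmer probe set of Slc1a5 differed by 0.03. Pck2, the mitochondrial PEP carboxykinase, read 8.11, 8.08, 8.25 and 8.08 in DTC tumors and 8.67, 8.59, 8.34 and 8.19 in mammary tumors. Mammary tumor 4 fell among the DTC tumors, and the difference was -0.32 with an adjusted limma p of 0.399. Pck2 lies on chromosome 14 as well, and its value was 0.04 above the median of that chromosome.

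The CARE, where ATF4 binds with C/EBP proteins, was searched as TGATGNAA on both strands. It occurred in 1304 of the 32851 windows (3.97%) and in 9 of the 38 members with a window: Atf3, Chac1, Trib3, Asns, Fgf21, Nupr1, Herpud1, Pck2 and Vldlr. Their differences ran from -0.58 to 0.37. The window of Asns (chr6:7693160-7693459, minus strand) is shown as the usual example, with the match in capitals.
Asns: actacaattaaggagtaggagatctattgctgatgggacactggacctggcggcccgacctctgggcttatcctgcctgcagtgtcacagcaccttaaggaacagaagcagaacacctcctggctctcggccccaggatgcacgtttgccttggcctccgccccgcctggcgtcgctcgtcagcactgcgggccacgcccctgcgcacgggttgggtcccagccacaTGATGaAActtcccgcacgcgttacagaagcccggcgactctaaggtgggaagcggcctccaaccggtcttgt
Mthfd2, the gene with the largest difference toward DTC tumors, held no match in its window, which says only that these letters are not in those bases.

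Set side by side, the ER list had a median difference of 0.00 over 14 genes and the ATF4 amino acid list of 0.12 over 12, beside 0.01 for all 22180 genes and -0.01 for those with a mean log2 level of at least 5. The ER list reached from -0.72 to 0.11 and the amino acid list from -0.33 to 0.52. In the limma fit without the filter, 3 genes of the ER list passed an unadjusted p of 0.05 on the lower side and none on the higher side, and in the amino acid list 2 were higher and 1 lower, beside 11.4% lower and 7.04% higher of the brighter genes. To follow single tumors, each gene's deviation from its own mean over the 8 tumors was averaged over a list. The amino acid list minus the ER list was then 0.13, 0.12, 0.02 and 0.11 in the DTC tumors and -0.11, -0.03, -0.01 and -0.23 in the mammary tumors. All DTC tumors lay above all mammary tumors, DTC tumor 3 and mammary tumor 3 being the closest. The ER part of this contrast is a mean, which differed by -0.12 between the groups while the ER median was 0.00. That mean was drawn down in DTC tumors mainly by Dnajc3 (-0.72), Herpud1 (-0.58) and Dnajb9 (-0.41). List means without those 3 genes are not given here. The ER list alone averaged -0.08, -0.03, -0.03 and -0.11 in DTC tumors and 0.08, -0.06, 0.06 and 0.17 in mammary tumors, where mammary tumor 2 sat among the DTC tumors. The amino acid list alone averaged 0.06, 0.09, -0.01 and 0.00 in DTC tumors and -0.03, -0.09, 0.05 and -0.06 in mammary tumors and overlapped too. These are descriptions without a test, since the genes were chosen with results known. The difference of the list medians, 0.12, was 0.04 without mammary tumor 4.

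**Figure D3:**
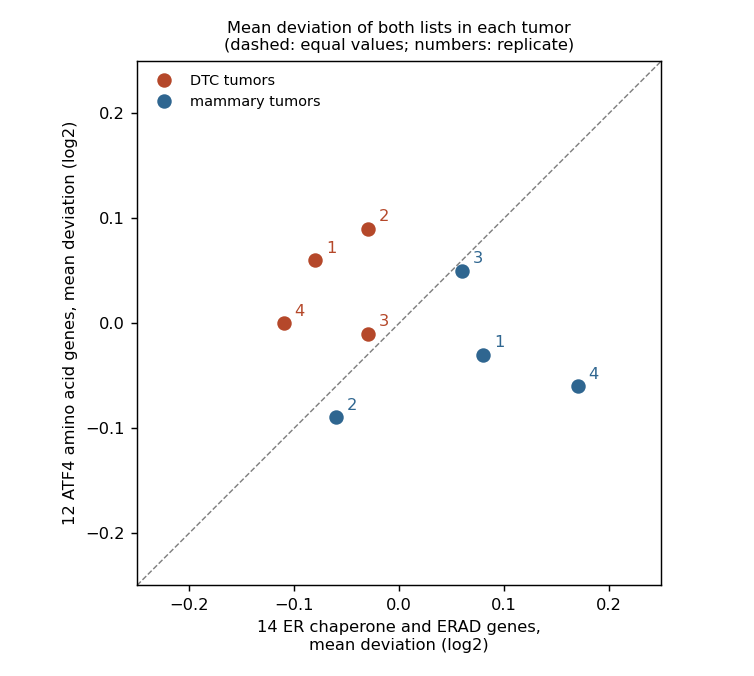
Each point is 1 tumor, with the mean log2 deviation of the 14 ER chaperone and degradation genes on the horizontal axis and that of the 12 ATF4 amino acid genes on the vertical axis. The DTC tumors lie above the dashed line of equal values and the mammary tumors below it, mammary tumor 3 closest to the line at -0.01. The ER mean is drawn down in DTC tumors mainly by Dnajc3, Herpud1 and Dnajb9.

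Trib3 and Chac1, both stress effectors, varied more within the groups than their means differed between them. Trib3, a pseudokinase induced by ATF4 and CHOP, read 7.29, 6.82, 7.01 and 7.41 in DTC tumors and 7.02, 7.17, 7.44 and 7.68 in mammary tumors. Mammary tumor 4 was the highest, and the groups overlapped with a difference of -0.19. Chac1, which breaks down glutathione, and Atf3 were picked for display after their values were seen. Chac1 read 5.82, 5.31, 5.23 and 6.06 in DTC tumors and 5.44, 5.18, 5.21 and 6.38 in mammary tumors, and Atf3 read 7.51, 7.38, 7.13 and 7.69 in DTC tumors and 7.03, 6.75, 6.97 and 8.01 in mammary tumors. For both genes mammary tumor 4 was the highest, followed by DTC tumors 4 and 1. Their within-group pooled SDs, 0.49 for Chac1 and 0.43 for Atf3, were the widest of the set and compare with a median of 0.17 over the 42 genes and also over the 13862 brighter genes. Ppp1r15a encodes GADD34, which brings a phosphatase to eIF2 and ends the response. It read 7.10, 6.57, 6.53 and 6.79 in DTC tumors and 6.22, 6.20, 6.53 and 6.56 in mammary tumors. DTC tumor 3 fell within the mammary range, and the difference was 0.37 with an unadjusted p of 0.0389 and an adjusted p of 0.4 in the limma fit without the filter, since its interquartile range of 0.17 was too small for the filtered fit. Sesn2, which restrains mTORC1 when leucine is short, differed by -0.20 and Vldlr, a lipoprotein receptor raised by ATF4, by -0.15. Fgf21, a stress hormone, differed by 0.37 at levels of 3.99 to 5.00 and a mean below 5.

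Mammary tumor 4 was the highest of the 8 tumors for 14 of the 42 genes (33.3%), beside 14.8% of the brighter genes of the array, and mammary tumor 2 was the lowest for 13 (31%), beside 12.5%. Of the 14 ER genes, 7 were highest in mammary tumor 4 and 6 lowest in mammary tumor 2. Sdf2l1 was an example, at 8.08 in mammary tumor 2 and 8.79 in mammary tumor 4 against 8.37 to 8.57 in the DTC tumors. The range of the mammary tumors enclosed all 4 DTC tumors for Hspa5, Hsp90b1, Calr, Pdia3, Sdf2l1, Manf, Creld2, Atf3, Atf5, Nupr1 and Chac1. Mammary tumor 4, highest here, also had the highest deviation of 9 fibroblast markers (0.31) and the lowest of 10 macrophage markers (-0.35). Mammary tumor 2, lowest here, had a fibroblast deviation that was also above 0 (0.23) and a macrophage deviation of 0.00. The part of these cells in the result was not tested.

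**Figure D4:**
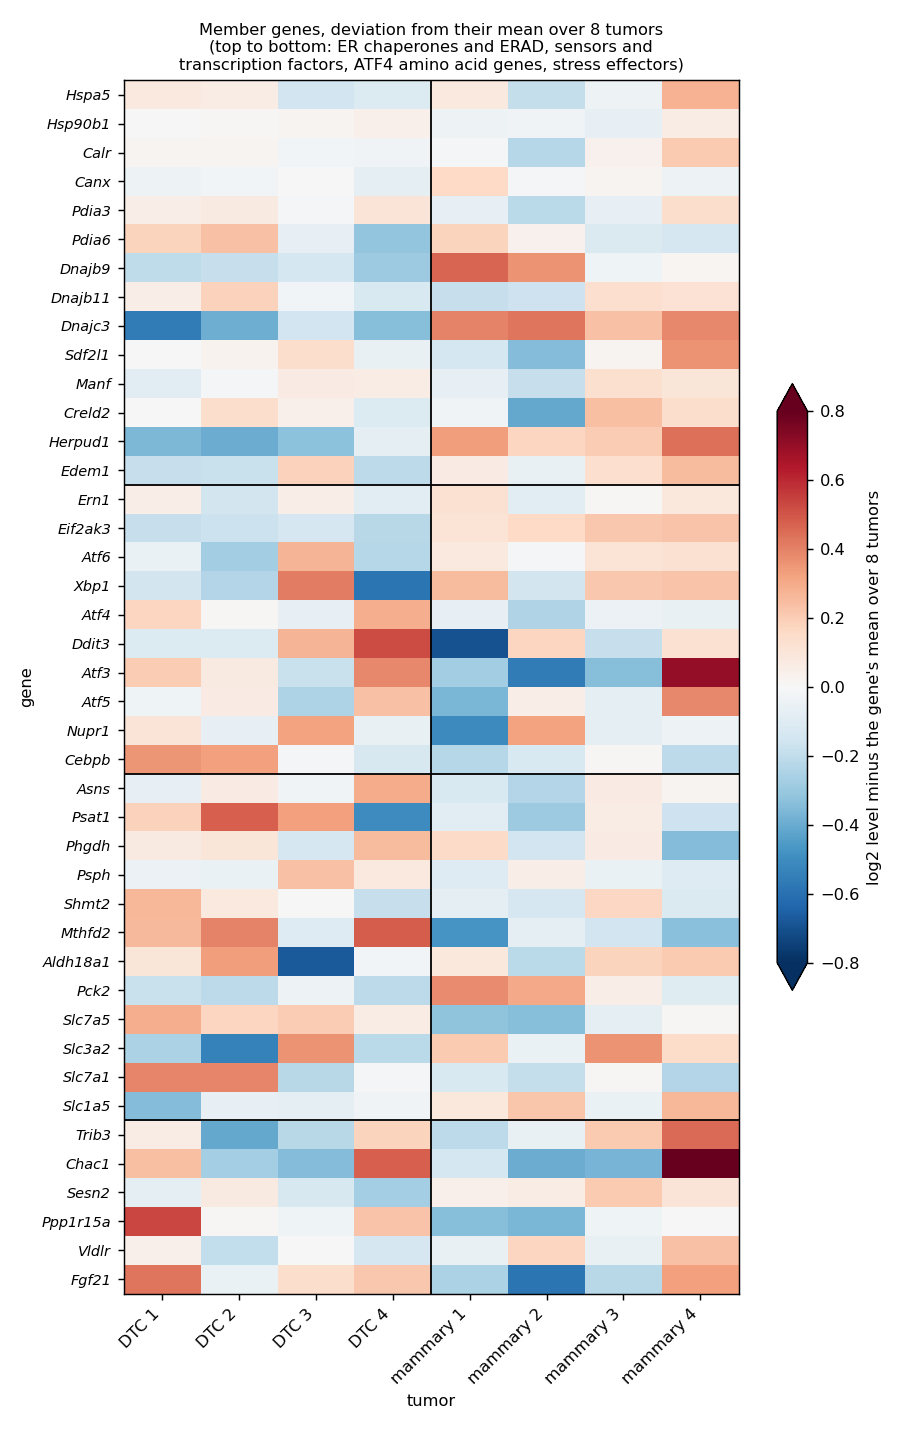
Each row is 1 of the 42 genes and each column 1 tumor, and the color is the log2 level minus the gene's mean over the 8 tumors. The rows of Dnajc3, Herpud1 and Eif2ak3 split at the line between the groups, whereas Atf3, Chac1 and Trib3 are high in mammary tumor 4, at 8.01, 6.38 and 7.68.

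Genes of the same pathways outside the set were read in the same way, and none of the 5 further lists held a gene past an adjusted p of 0.05 in limma. Among 33 other genes of ER folding and quality control, 26 had a lower mean in DTC tumors (78.8%, beside 51.6% of the brighter genes), with a median of -0.15. In the fit without the filter 7 of them had a lower and 2 a higher level with an unadjusted p under 0.05, beside 11.4% and 7.04% of the brighter genes. Ero1b, an oxidase that drives disulfide formation, differed by -0.81 and did not overlap (adjusted limma p 0.102). Its paralog Ero1a went the other way, by 0.90 with overlapping groups (adjusted limma p 0.15). Ero1a was also the brighter, at a mean of 11.04 in DTC and 10.14 in mammary tumors against 6.28 and 7.09 for Ero1b. Os9, a lectin of the degradation machinery, differed by -0.42 and Sec61b, a subunit of the translocation channel, by 0.82. The Sec61b probe set was dim, with a mean of 5.51 in DTC and 4.69 in mammary tumors. Among 27 other ATF4 targets and eIF2 regulators, 6 were higher and 3 lower at that p, beside 7.04% and 11.4% of the brighter genes. The leading genes were Eif4ebp1, a repressor of cap-dependent translation, at 0.90 (adjusted limma p 0.0834), the secreted factor Stc2 at 0.92 (0.0859) and the mTORC1 inhibitor Ddit4 at 0.98 (0.102). Stc2 and Ddit4 are known targets of hypoxia as well as of ATF4. The 16 aminoacyl-tRNA synthetases, most of them known ATF4 targets, had a median of 0.03 and ran from -0.21 (Sars) to 0.26 (Eprs), with Cars at 0.25. The 12 cytosolic heat shock genes had a median of 0.04, with Hspa1a at 0.40, Dnajb1 at 0.25 and Hspa4l at -0.16. Hspa1a may share probes with its near-identical copy Hspa1b, which differed by 0.07, and both genes had overlapping groups. The 12 mitochondrial stress genes had a median of 0.12, with the chaperonin genes Hspd1 at 0.37 and Hspe1 at 0.31 and the RNA-binding protein gene Ybx1 at 0.26.

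The tumors carried the epithelial markers the labels imply, with 5 of 6 at a mean log2 level of at least 5 and Krt19 at 4.74. Their summed level was 13.18 to 13.39 in DTC tumors and 13.25 to 13.38 in mammary tumors, and Epcam was the only epithelial marker whose groups did not overlap (-0.38). The 9 fibroblast markers, from cells with a large ER of their own, summed to 12.01 to 12.46 in DTC tumors and 12.20 to 12.65 in mammary tumors, 7 of 9 having a lower mean in DTC tumors. Plasma and B cell markers, of another cell type rich in ER, summed to 8.32 to 8.57 and 8.23 to 8.56, with 6 of 9 under a mean of 5. Macrophage markers summed to 12.09 to 12.58 and 11.75 to 12.38. The part of these cells in the ER gene values was not tested. Arrays correlated at 0.977 to 0.988 within a group and up to 0.984 between groups over all probe sets.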

How the data were processed

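Sketch-quantile normalization in oneChannelGUI was used by the authors on the 8 arrays, and the deposited values are log2 levels of 41345 probe sets. No source used here gives the probe summary method or software versions. Per the labels 500 ng of total RNA went into each labelling, while the methods of the study give a smaller amount, so the input is not settled. Array medians were 5.36 to 5.42, and the number of arrays limits the precision.

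Genes were named from the platform annotation, and 1820 probe sets with several symbols were left out when a gene's probe set was chosen. In the main limma fits, probe sets were not left out for their symbols. Groups came from the sample titles. Apart from the exact permutation test and Dixon's outlier check, all tests were limma 3.58.1 in R 4.3.3 (lmFit, eBayes, two-sided). Benjamini-Hochberg adjustment ran over all probe sets tested, after the methods' filter (interquartile range above 0.25 over the 8 arrays). Differences, SE and 95% intervals, and the p of genes at or below 0.25, came from the fit without the filter. The fit was tested on simulated data of this comparison with 16886 probe sets. There 0% of 50 changes of 0.5, 68% of 1 and 98% of 2 log2 units passed the adjusted p alone. The fold threshold was not applied to the simulated data, so these shares do not give the recovery under both thresholds.

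Every member was named, with all tumors' values where the unfiltered p was at most 0.05 and for Hspa5, Xbp1, Atf4, Ddit3, Asns and Trib3. Of each further list the 3 genes with the smallest p were named. Ero1a was added beside Ero1b and Hspa1b beside Hspa1a after their values were seen. Members and lists were chosen with earlier results of these data known. Promoter windows came from RefSeq (GRCm38.p6). Alternatives changed the filter, scaling, variance model, probe set rule, tumors and pairing.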

Additional observations from a re-analysis of the deposited data

Results flagged for a closer look

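Of 84 groups of 4 tumors (42 genes, DTC and mammary), 4 held a tumor whose gap to the nearest other, divided by the whole range, passed Dixon's 95% critical value for 4 samples, and chance flags about 1 in 20 groups. Edem1 in DTC tumor 3 was 8.89, above 8.50 to 8.53 in the other DTC tumors. Slc1a5 in DTC tumor 1 was 6.70, below 6.97 to 7.02. Mammary tumor 2 stood apart for 2 transcription factors, at 10.44 for Xbp1, below 10.80 to 10.84, and at 9.44 for Atf4, below 9.61 to 9.63. The same tumor was the lowest of the 8 for 13 of the 42 genes.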

How the results depend on the processing

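Of the 42 genes, 31 kept the sign of their difference, with no value rounding to 0, under every alternative that gave one. Among the others, Atf5 ran from -0.12 to 0.13 when 1 tumor was left out, Hspa5 was 0.02 without mammary tumor 4, Aldh18a1 0.07 without DTC tumor 3 and Chac1 -0.10 without DTC tumor 4, and Calr and Manf, within 0.01 of 0, changed sign under cyclic loess and median centring. The 25 probe sets past both limma thresholds became 86 with 1 probe set per gene, 83 with the mean of a gene's probe sets, 65 without probe sets with a mean below 5, 57 with robust trended variances, 46 when arrays were weighted, 15 with an interquartile range above 0.5 and 7 with the replicate number as a block. Members past the adjusted p went from 0 to 2 with 1 probe set per gene and to 2 with the mean of probe sets, in both cases Dnajc3 and Herpud1. Members higher at the unadjusted p went from 2 to 0 with a range above 0.5, 1 with median centring and 1 with the replicate block, and those lower from 4 to 2 with a range above 0.5. Restricting the lists to genes with a range above 0.25 moved the ER median to -0.30, the amino acid median to 0.24 and their difference to 0.54, since this keeps the genes that vary most. Without Dnajc3, Herpud1 and Dnajb9, left out after seeing the data, the difference of the list medians was 0.10. A median moves little when extreme genes are dropped, so this value does not describe the list means per tumor, which are not given without these genes.

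Leaving out 1 tumor gave 9 (without mammary tumor 3) to 47 (without DTC tumor 3) probe sets past both thresholds, 0 to 0 members past the adjusted p, 0 to 4 higher and 2 to 6 lower at the unadjusted p. The ER median was -0.08 to 0.03, the amino acid median 0.07 to 0.16 and their difference 0.04 (without mammary tumor 4) to 0.18. Genes that did not overlap numbered 1 to 6 higher (6 without mammary tumor 4) and 4 to 8 lower (8 without DTC tumor 3), 3 tumors overlapping less easily than 4. The adjusted p of Dnajc3 ran from 0.0858 to 0.296. Tumors of the same number deviated together weakly (correlations of 0.0074 to 0.194), and 2 of 4 DTC tumors correlated best with their own number. With so few tumors this cannot exclude a pairing. The titles do not state one, so the main fit used none.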
